A study of Caenorhabditis elegans with 45 samples.

Results

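In hybrids between the wild Caenorhabditis elegans isolate ECA722 and the laboratory strain N2, every nuclear gene is present as an ECA722 allele and an N2 allele in the same cells. The levels of both alleles were compared within each of 3 hybrid RNA-seq libraries. Genes were taken where a hybrid library held, on average over the 3, at least 10 reads that matched transcripts of 1 allele of 1 gene only (allele-specific reads). This left 9322 of the 46932 genes listed in the files, of which 20010 had at least 1 read in the hybrids. Of the 9322 genes, 9309 are nuclear and 13 mitochondrial. Nuclear genes had a median of 191 allele-specific reads and a median total count of 1358 per hybrid library, and the median share of reads that told the alleles apart was 17.7%.

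Both alleles of a hybrid are exposed to the same transcription factors, small RNAs and RNA-binding proteins. A lasting difference between them is therefore attributed to sequence or chromatin linked to the allele itself, which is called a cis difference. A difference between the parental strains that is missing between the alleles is attributed to diffusible factors and is called a trans difference. Wild C. elegans isolates are known to carry regions of high divergence from N2, rich in genes for sensing, immunity and detoxification, and reads from such regions can fail to match an N2-derived gene model.

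The study measured polyadenylated RNA of whole day 1 adult hermaphrodites from N2, 7 wild strains and the F1 of each wild strain with N2, in 45 libraries. The 3 ECA722 hybrid libraries came from ECA722 males and N2 mothers carrying a fog-2 mutation, which makes hermaphrodites unable to produce sperm of their own, and the hybrids are labelled wild type. The 3 ECA722 parental libraries came from selfed ECA722 hermaphrodites. The 3 N2 parental libraries carry a label of N2 with a fog-2 deletion, whereas their growth protocol speaks of selfing hermaphrodites of N2, and they are called the libraries labelled N2 here. Nothing in the labels says that replicates came from separate cultures, so p-values measure the spread between these libraries, which may be technical. ECA722 was always the father and N2 always the mother, so the strain of an allele and its parent of origin cannot be told apart. The hybrid libraries held 78898308, 80543075 and 37659923 fragments, of which 12.3%, 12.6% and 12.4% were allele-specific. The 6 parental libraries held between 49201230 and 88459122 fragments.

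In the ECA722 parental libraries, which carry no N2 allele, 0.0823%, 0.0808% and 0.0816% of the allele-specific reads were assigned to N2. This background exceeded 5% in 77 genes, of which 31 are among the allele differences below, 7 with the ECA722 and 24 with the N2 allele higher. The libraries labelled N2 were quantified by the authors against N2 and QX1211 alleles, so they give no matching background for ECA722 alleles. Over all genes, the ECA722 allele took 50.38%, 50.17% and 50.01% of the counts in hybrid replicates 1, 2 and 3. Summed levels of a sperm gene list were 50.6, 377 and 325 CPM (counts scaled to the size of the library) in hybrid replicates 1, 2 and 3, against 170 to 235 in the ECA722 parents and 255 to 320 in the libraries labelled N2. Hybrid replicate 1 thus stood apart in sperm RNA. In bulk RNA, fewer sperm and less sperm RNA per animal cannot be told apart.

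The alleles differed in 897 of 9309 nuclear genes (9.64% of those tested; edgeR quasi-likelihood test with the library as a term, Benjamini-Hochberg adjusted p below 0.05). The ECA722 allele was higher in 489 genes (5.25%) and the N2 allele in 408 (4.38%), and at an unadjusted p under 0.05 the count was 2230. Of the 897 differences, 277 were below 1.5-fold and 166 between 1.5-fold and 2-fold, while 454 (4.88%) reached 2-fold, 229 with the ECA722 and 225 with the N2 allele higher. A further step up, 128 genes differed 16-fold or more, 54 with the ECA722 and 74 with the N2 allele higher. All 897 lay on the same side in all 3 hybrid libraries, as did 4262 (45.8%) of all 9309 tested nuclear genes. The calls were made from these same counts, so this is no separate support. Fits without hybrid replicate 1, 2 or 3 called 512, 298 and 627 genes, and 480, 289 and 579 of these were among the 897. Allele-specific reads alone, without the authors' division of shared reads, called 1871 genes (20.1%), of which 841 were among the 897 and 831 also in the same direction.

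The first gene to examine was fog-2, an F-box gene needed for hermaphrodite sperm formation, because the mothers carried a mutation in it. The ECA722 allele of fog-2 had 1610, 1535 and 752 counts in hybrid replicates 1, 2 and 3, against 138, 159 and 66 for the N2 allele. The ECA722 allele was the higher one in each library, with a log2 difference of 3.44 ± 0.13 (SE; edgeR, adjusted p = 0.000193). In the 18 hybrid libraries of the other 6 crosses the wild fog-2 allele took 86.0% to 95.3% of the counts, with a median of 92.2%. The parents differed far less, at 33.3 ± 0.97 CPM in ECA722 and 43.5 ± 5.1 in the libraries labelled N2 (SD, n = 3 each). The libraries labelled N2 therefore held fog-2 RNA at a level close to that of ECA722, unlike the N2 allele in the hybrids.

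Some large ECA722-biased differences were in genes with almost no N2 RNA. The uncharacterised gene C49G7.13 (chromosome V, 4036111 to 4038054, WBcel235) had 3377, 4075 and 1822 counts from the ECA722 allele and 3, 6 and 0 from the N2 allele in the 3 hybrid libraries. The log2 difference was 9.97 ± 0.28 (SE; edgeR, adjusted p = 6.4e-05), and the parents stood at 124 ± 2.3 CPM in ECA722 and 0.0243 ± 0.033 in the libraries labelled N2 (SD, n = 3 each). The difference was thus present both between whole animals of the strains and within the hybrids. For the gene mltn-2 the counts were 1602, 1601 and 809 from the ECA722 allele against 20, 24 and 31 from the N2 allele, a log2 difference of 5.67 ± 0.34 (edgeR, adjusted p = 0.000992). For nas-21, an astacin-type metalloprotease gene, they were 729, 779 and 365 from the ECA722 allele against 17, 22 and 12 from the N2 allele. The nas-21 difference was 5.17 ± 0.21 on the log2 scale (edgeR, adjusted p = 0.000221), and each of these genes separated the alleles in all 3 libraries. The neprilysin-type peptidase gene nep-4 had 1095, 1000 and 481 ECA722 counts against 153, 125 and 39 N2 counts, a difference of 3.12 ± 0.20, and a parental difference of 3.02, so that both comparisons gave the same size.

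The adult cuticle collagen gene col-19 (chromosome X, 421707 to 422691) carried an N2-biased difference with many allele-specific reads. Its ECA722 allele had 2949, 3631 and 1414 counts in hybrid replicates 1, 2 and 3, against 74862, 92228 and 36816 for the N2 allele, with 32.7% of its reads allele-specific. The N2 allele was higher by a wide margin in each library, with a log2 difference of -4.68 ± 0.03 (SE; edgeR, adjusted p = 1.77e-07). The parents differed in the same direction but by less, at 170 ± 11 CPM in ECA722 and 1520 ± 110 in the libraries labelled N2 (SD, n = 3 each), and the trans term was called (edgeR, adjusted p = 1.37e-06). The gene ZK1193.2 overlaps col-19, and no source says whether reads were counted by strand. Of the 897 called nuclear genes, 260 overlap another gene on either strand. Genes described below, such as clec-3, cyp-35B1, col-142, ergo-1, rpn-9 and acdh-2, are among them.

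The folate transporter family gene folt-2 had 637, 795 and 345 ECA722 counts against 16603, 18417 and 8950 N2 counts, a log2 difference of -4.64 ± 0.06 (edgeR, adjusted p = 4.33e-06). In the parents its difference was larger, at -6.24. The ribonuclease H gene rnh-1.2 had 20, 8 and 4 ECA722 counts against 961, 979 and 509 N2 counts, and its allele and parental differences were alike, at -6.32 and -6.31 on the log2 scale. The uncharacterised gene F53H4.2 (-6.18), Y39D8A.1 (-6.88) and the claudin-like gene clc-23 (-5.75) also had nearly all their hybrid RNA from the N2 allele. Each of these genes kept its call in the fits without 1 hybrid library.

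**Figure D1:**
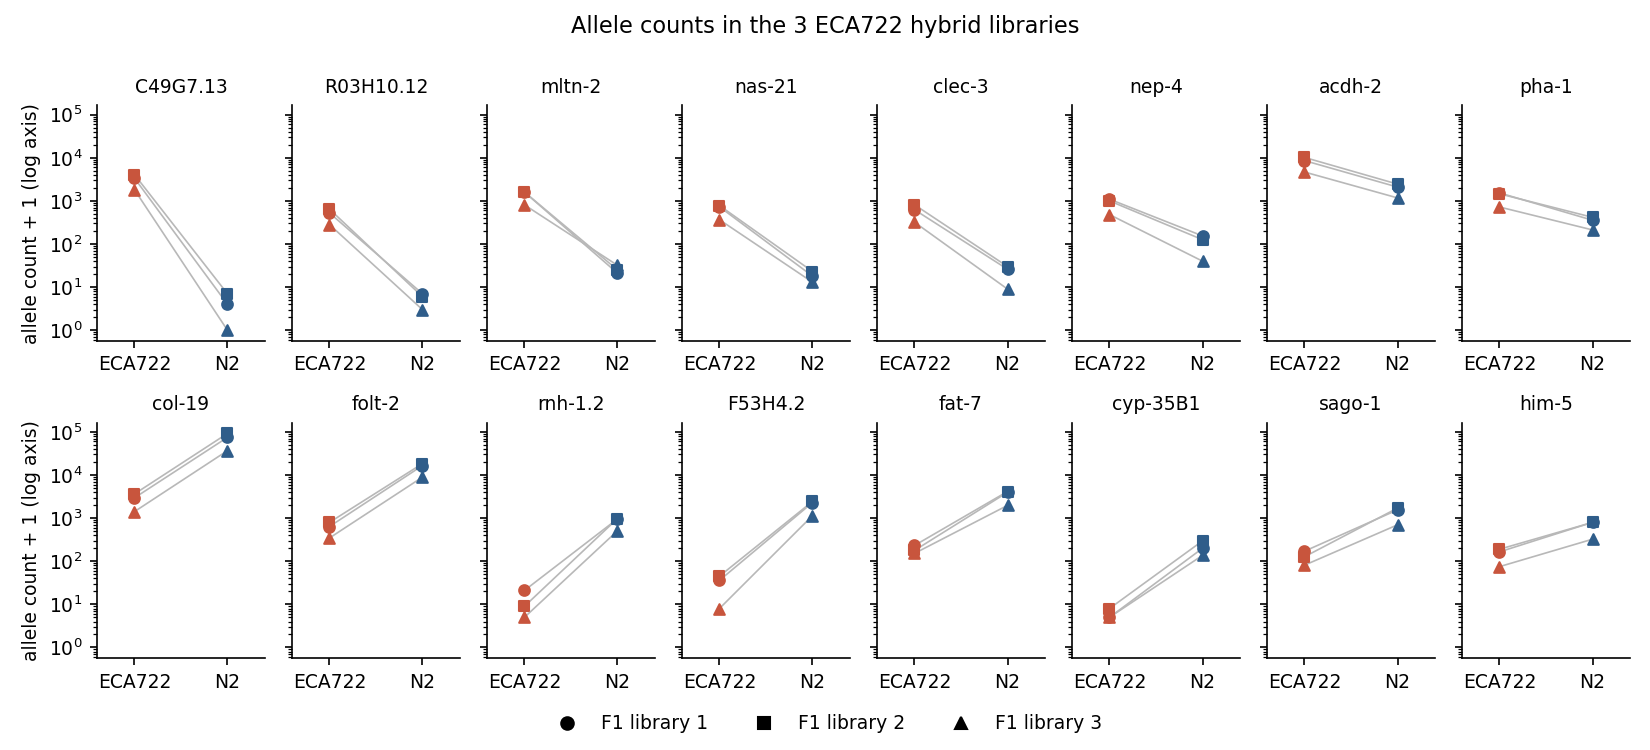
Allele counts plus 1 on a log axis for 16 genes in the 3 hybrid libraries (markers), with the ECA722 allele left and the N2 allele right in each panel; the top row holds genes with the ECA722 allele higher and the bottom row genes with the N2 allele higher. All 16 genes were chosen among the calls, and the alleles do not overlap in any panel. C49G7.13 has at least 1822 ECA722 and at most 6 N2 counts, and col-19 at most 3631 ECA722 and at least 36816 N2 counts.

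Genes for immunity and for ubiquitin-ligase adaptors carried many of the large differences. Of 239 tested members of these lists 52 were called, 21 with the ECA722 and 31 with the N2 allele higher (21.8%, against 9.64% of all tested genes). Their median absolute log2 difference was 0.61, against 0.19 over all tested genes. The parents differed in the same direction in 49 of the 52. Fits without hybrid replicate 1, 2 or 3 called 36, 18 and 44 of the members.

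C-type lectins are secreted sugar-binding proteins of which many respond to infection. Of 70 tested, 17 were called (24.3%, against 9.64% of all tested nuclear genes), 9 with the ECA722 and 8 with the N2 allele higher. The calls numbered 11, 4 and 15 without hybrid replicate 1, 2 or 3. The clec-3 alleles had 624, 814 and 320 ECA722 counts against 25, 29 and 8 N2 counts (4.87 ± 0.23 on the log2 scale; edgeR, adjusted p = 0.000371), and the parents differed by 4.66. The opposite extreme was clec-166, with 1, 0 and 0 ECA722 counts against 294, 418 and 155 N2 counts. The N2 allele of clec-166 thus had 848 times the ECA722 allele's summed allele-specific reads, with a 95% counting interval of 152 to 33533, and the ECA722 parents showed 0 CPM in all 3 libraries. A lack of RNA and a lack of a matching gene in ECA722 cannot be told apart for such genes.

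F-box A genes encode substrate adaptors of ubiquitin ligases and form a large family in C. elegans. Of 65 tested, 14 were called (21.5%, against 9.64% of all tested nuclear genes), 3 with the ECA722 and 11 with the N2 allele higher. This split was the same under both alternative scalings of the alleles. The counts were 10, 7 and 11 without hybrid replicate 1, 2 or 3. Allele-specific reads alone called 33 (50.8%, against 20.1% of all tested nuclear genes), 13 with the ECA722 and 20 with the N2 allele higher. In fbxa-60 no read was given to the ECA722 allele, against 281, 371 and 164 counts for the N2 allele, of which 69 in all were allele-specific reads. From allele-specific reads the N2 allele was at least 23-fold higher, with the empty allele set to 3 reads over all libraries together. By the same bound the N2 allele was at least 118-fold higher in fbxb-7 and at least 19.3-fold higher in fbxa-189, and the ECA722 parents averaged 0.00935 CPM for fbxb-7 and 0 for fbxa-189. The fbxa-60 gene differs from these, since its ECA722 parents held 1.3 ± 0.30 CPM, against 9.17 ± 0.53 in the libraries labelled N2 (SD, n = 3 each). The call of fbxa-189 was lost without hybrid replicate 2 (edgeR, adjusted p = 0.0925).

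MATH and BATH domain genes, which encode adaptors for another ubiquitin ligase class, were called in 8 of 25, with 4 in each direction, and in 5, 2 and 6 without hybrid replicate 1, 2 or 3. In bath-24 the ECA722 allele had no count and the N2 allele 166, 151 and 73, and from 173 allele-specific reads the N2 allele was at least 57.7-fold higher. In bath-35, 86.8% of the allele-specific reads in ECA722 parents were assigned to N2, so its hybrid values do not separate the alleles. Of the pals genes, a family of the response to intracellular pathogens, 3 of 9 were called, 2 with the ECA722 and 1 with the N2 allele higher, and leaving out hybrid replicate 1, 2 or 3 left 1, 1 and 2. Allele-specific reads alone called 8 pals genes (88.9%, against 20.1% of all tested nuclear genes), 2 with the ECA722 and 6 with the N2 allele higher. The pals-37 alleles had 78, 92 and 41 ECA722 counts against 1 N2 count in each library, a ratio of 65.3 in allele-specific reads with a 95% counting interval of 22 to 319.5, while pals-23 had 0 ECA722 counts and 72, 41 and 17 N2 counts. The pals-23 call was lost without hybrid replicate 1 (edgeR, adjusted p = 0.0749) or 2 (0.0952).

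The infection response gene irg-8 was lower from the ECA722 allele, with 1792, 2369 and 1006 counts against 4593, 5090 and 2510 from the N2 allele (-1.26 ± 0.07; edgeR, adjusted p = 0.000911). Its parents differed by -1.37, and the trans term was not called. Of 29 lysozymes and antimicrobial peptides, 0 were called by edgeR with Benjamini-Hochberg adjustment, against 9.64% of all tested nuclear genes. At an unadjusted p under 0.05 the count was 7 of 29, against 2230 of all 9309. From allele-specific reads alone it was 4 (13.8%), against 20.1% of all, and the list was not tested against all genes. The median gene of this list had 31.7 allele-specific reads per hybrid library, against 191 over all tested nuclear genes. The part of this depth in the lack of calls was not tested.

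In the detoxification lists 28 of 270 tested genes were called (10.4%, against 9.64% of all tested genes), 10 with the ECA722 and 18 with the N2 allele higher. Without hybrid replicate 1, 2 or 3 the counts were 13, 8 and 19. The N2-biased side came largely from cytochrome P450 genes, oxidases of foreign and endogenous compounds, where 10 of 40 were called, 1 with the ECA722 and 9 with the N2 allele higher. All 10 lie on chromosome V, the split was the same under both alternative allele scalings, and without hybrid replicate 1, 2 or 3 the counts were 7, 5 and 7.

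Neighbouring genes of the cyp-35 cluster differed in unequal ways. The cyp-35B1 alleles had 4, 7 and 4 ECA722 counts against 199, 296 and 136 N2 counts (-5.35 ± 0.33; edgeR, adjusted p = 0.00102). Next to it, cyp-35A5 had 61, 73 and 21 ECA722 counts against 582, 622 and 270 N2 counts (-3.32 ± 0.21; edgeR, adjusted p = 0.00103), but its parents differed by -0.74 only. For cyp-35B2 the alleles had 475, 568 and 254 ECA722 counts against 1318, 1415 and 633 N2 counts, a log2 difference of -1.37 ± 0.11. Its parents differed in the opposite direction, at 39.6 ± 1.9 CPM in ECA722 and 8.71 ± 0.38 in the libraries labelled N2 (SD, n = 3 each), and the trans term of 3.56 was called (edgeR, adjusted p = 1.16e-08). The parental difference of cyp-35B2 thus did not follow its alleles. The 4 genes cyp-35A5, cyp-35B2, cyp-35A2 and cyp-33C8 were singled out after their values were seen.

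The ECA722-biased P450 was cyp-33C8, at 1.76 ± 0.27 on the log2 scale (edgeR, adjusted p = 0.0166), and this call was lost without hybrid replicate 2 (adjusted p = 0.112) or 3 (0.0624). Among UDP-glucuronosyltransferases, which attach sugars to small molecules, 6 of 44 were called, 3 in each direction, including ugt-12 at -1.08 ± 0.10, and 4, 1 and 7 were called without hybrid replicate 1, 2 or 3. Glutathione S-transferases were called in 3 of 23 (13.0%), ABC transporters in 2 of 41 (4.88%) and nuclear hormone receptors in 7 of 122 (5.74%). The share over all tested nuclear genes was 9.64%. Leaving out hybrid replicate 1, 2 or 3 left 0, 0 and 0 transferases, 0, 0 and 1 transporters and 2, 2 and 4 receptors. The receptor gene nhr-219 was higher from the ECA722 allele by 5.45 ± 0.76 on the log2 scale (edgeR, adjusted p = 0.0118), while nhr-57 had 32, 36 and 15 ECA722 counts against 96, 111 and 44 N2 counts. The nhr-57 call was lost without any 1 of the 3 hybrid libraries (edgeR, adjusted p = 0.111 to 0.228).

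Cuticle collagens form the outer coat of the animal and are made in large amounts by the hypodermis. Of 45 tested, 16 were called (35.6%, against 9.64% of all tested nuclear genes), 8 in each direction. The median absolute log2 difference over the list was 0.53. Without hybrid replicate 1, 2 or 3 the counts were 14, 9 and 15, and with the alleles scaled separately by TMM or DESeq2 size factors the list held 19 calls, 8 with the ECA722 and 11 with the N2 allele higher. The ECA722 allele of col-142 had 12274, 13489 and 5748 counts against 3257, 3733 and 1623 from the N2 allele (1.86 ± 0.04; edgeR, adjusted p = 2.89e-05), and the parents differed by 0.99. In col-165 the alleles had 54, 48 and 33 ECA722 counts against 1, 1 and 0 N2 counts, a ratio of 58 in allele-specific reads with a 95% counting interval of 15.7 to 485, and the call was lost without hybrid replicate 2 (edgeR, adjusted p = 0.0684). The named gene col-142 was chosen after its value was seen.

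Collagens resemble each other in sequence, and 4 of the 16 calls rest on genes in which under 5% of the reads were allele-specific. The neighbours col-93 and col-94 illustrate this. For col-93, 0.0966% of the reads were allele-specific, the log2 difference was -6.18 ± 0.03 from all counts and -0.55 from allele-specific reads alone, which was not called, and the parental difference was -1.11. For col-94, 0.742% were allele-specific and the difference was 1.98 ± 0.04 from all counts and 3.36 from allele-specific reads, with a parental difference of -0.39 in the opposite direction. In col-179 the difference was 1.43 from all counts and -4.89 from allele-specific reads. The size of the col-93 and col-94 differences and the direction of the col-179 difference thus changed with the reads used, whereas col-19 and col-142, with 32.7% and 25.5% of their reads allele-specific, gave the same difference by either count.

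Genes of small RNA pathways, which silence transposons and foreign sequence through Argonaute proteins and amplified short RNAs, were called in 26 of 73. This was 35.6%, against 9.64% of all tested nuclear genes. The ECA722 allele was higher in 16 and the N2 allele in 10, with a median absolute log2 difference of 0.18 over the list, close to the 0.19 of all tested genes. Their median gene had 1006 allele-specific reads per hybrid library, against 191 over all tested genes. The depth behind these genes was thus higher, and the part of this depth in the share called was not tested. Without hybrid replicate 1, 2 or 3 the counts were 13, 12 and 20.

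The largest difference was in sago-1, a secondary Argonaute that acts with amplified small RNAs. Its alleles had 170, 126 and 80 ECA722 counts against 1556, 1712 and 699 N2 counts (-3.37 ± 0.18; edgeR, adjusted p = 0.000576). The parents stood at 5.9 ± 0.42 CPM in ECA722 and 43.9 ± 3.1 in the libraries labelled N2 (SD, n = 3 each), a log2 difference of -2.89, and the trans term was not called. The Argonaute ergo-1, which binds small RNAs in oocytes and embryos, was higher from the ECA722 allele, with 23707, 25446 and 12031 counts against 15190, 14892 and 6637 (0.76 ± 0.05; edgeR, adjusted p = 0.00103). Its parental difference was also 0.76.

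Other members of the silencing pathways described here differed by less than sago-1. The gene of the mutator foci scaffold mut-16 differed by 1.09 ± 0.09 between the alleles (edgeR, adjusted p = 0.00248) and by 0.24 between the parents. The wago-1 Argonaute differed by 0.52 ± 0.03, the piRNA Argonaute prg-1 by 0.25 ± 0.04 and ppw-1 by 0.31 ± 0.04, all with the ECA722 allele higher. The pieces eri-6 and eri-7, whose RNAs are joined into 1 helicase message of the ergo-1 pathway, were both lower from the ECA722 allele, at -1.02 ± 0.16 and -1.02 ± 0.21. The RNA-dependent RNA polymerase family gene rrf-2 was higher, at 1.51 ± 0.23. Each of the calls of eri-6, eri-7, rrf-2, prg-1 and ppw-1 was lost without at least 1 hybrid library (edgeR, adjusted p between 0.0555 and 0.168), and eri-6 overlaps sosi-1 among other genes. The gene wago-1 was chosen after its value was seen. Finally, 2 annotated pseudogenes related to Argonautes differed in opposite ways, C06A1.4 at 1.03 ± 0.03 and F55A12.1 at -1.36 ± 0.05.

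Reproductive genes were called in 17 of 115 (14.8%, against 9.64% of all tested nuclear genes), and without hybrid replicate 1, 2 or 3 in 14, 6 and 9. Of the vitellogenins and the yolk receptor, 4 of 6 were called, all under 2-fold from all counts. The abundant yolk gene vit-5 had 1016400, 991580 and 467010 ECA722 counts against 692900, 679620 and 335420 N2 counts (0.53 ± 0.02; edgeR, adjusted p = 0.000115), and its parents differed by 0.78. Allele-specific reads alone gave vit-5 a difference of 1.02, so its size changed with the reads used. The vit-5 paralog vit-2, with similar abundance, differed by -0.04 ± 0.01 and was not called (edgeR, adjusted p = 0.0569). For vit-4 the direction depended on the counts used, at 0.63 from all counts and -0.27 from allele-specific reads, which were 1.38% of its reads. For vit-3 the difference was 0.22 from all counts and 0.79 from allele-specific reads, and the parents differed by -0.72.

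Major sperm protein genes, whose product drives crawling of the amoeboid sperm, were called in 7 of 33 (21.2%, against 9.64% of all tested nuclear genes). The ECA722 allele was higher in 2 and the N2 allele in 5. The counts were 6, 2 and 3 without hybrid replicate 1, 2 or 3. In msp-152 the alleles had 2, 21 and 9 ECA722 counts against 33, 331 and 144 N2 counts (-3.97 ± 0.32; edgeR, adjusted p = 0.00222). Both alleles were low in hybrid replicate 1, the library with the lowest sperm RNA, yet the N2 allele was higher in each library. The msp genes are near-identical copies, so the authors' division of shared reads could move counts between them. None of 14 spe and fer genes of sperm development was called by edgeR, with 0 at an unadjusted p under 0.05 and 0 from allele-specific reads alone. The gene him-5, needed for meiotic breaks on the X chromosome, was lower from the ECA722 allele, with 164, 189 and 74 counts against 800, 796 and 324 (-2.16 ± 0.15; edgeR, adjusted p = 0.00142), and its parents differed by -1.39.

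Core cellular machinery was called in 18 of 128 (14.1%, against 9.64% of all tested nuclear genes), mostly by small differences. The counts were 9, 5 and 10 without hybrid replicate 1, 2 or 3. The proteasome lid gene rpn-9 had 15931, 15879 and 7614 ECA722 counts against 8289, 8469 and 4120 N2 counts (0.91 ± 0.04; edgeR, adjusted p = 0.000217). Its parents were not called, at 294 ± 14 CPM in ECA722 and 288 ± 13 in the libraries labelled N2 (SD, n = 3 each; log2 difference 0.03, edgeR, adjusted p = 0.674), and the trans term of -0.88 was called (edgeR, adjusted p = 1.32e-05). The alanyl-tRNA synthetase gene aars-1 had 3007, 2646 and 1445 ECA722 counts against 1339, 1533 and 651 N2 counts (1.03 ± 0.11; edgeR, adjusted p = 0.00422). The histone H3.3-type gene his-74 was lower from the ECA722 allele, with 1991, 2239 and 870 counts against 7068, 6975 and 3206 (-1.78 ± 0.07; edgeR, adjusted p = 0.000184), and lower by 1.49 on the log2 scale in ECA722 parents. The gene rps-15 of the small ribosomal subunit, with 2.14% of its reads allele-specific, was 1 of 2 called among 19 ribosomal protein genes, at -0.57 ± 0.04.

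In metabolism 17 of 148 were called (11.5%, against 9.64% of all tested nuclear genes), 9 with the ECA722 and 8 with the N2 allele higher. The counts were 9, 8 and 15 without hybrid replicate 1, 2 or 3. The stearoyl-CoA desaturase gene fat-7, which makes oleic acid, had 231, 177 and 151 ECA722 counts against 4148, 3981 and 1974 N2 counts (-4.13 ± 0.17; edgeR, adjusted p = 0.000217). Its parents differed by -1.19, at 24.2 ± 0.59 CPM in ECA722 and 55.3 ± 0.56 in the libraries labelled N2 (SD, n = 3 each), and the trans term of 2.94 was called (edgeR, adjusted p = 7.96e-07). The acyl-CoA dehydrogenase family gene acdh-2 went the other way, with 8607, 10201 and 4679 ECA722 counts against 2091, 2447 and 1172 N2 counts (2.03 ± 0.05; edgeR, adjusted p = 2.84e-05) and a parental difference of 0.38. The acyl-CoA synthetase gene acs-2 had the ECA722 allele higher by 0.96 ± 0.09 and the ECA722 parents lower, at -0.52. For the PEP carboxykinase gene pck-1 the alleles differed by -0.77 ± 0.07. For all of these the allele difference was larger than the parental one.

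Sensory and signalling genes were called in 6 of 87 (6.90%, against 9.64% of all tested nuclear genes), all 6 with the ECA722 allele higher. The counts were 2, 0 and 3 without hybrid replicate 1, 2 or 3. Allele-specific reads alone called 17 (19.5%, against 20.1% of all tested nuclear genes), 13 with the ECA722 and 4 with the N2 allele higher. Only 12 chemoreceptor genes of 1308 annotated entered the test. The one called was sri-65, with 65, 74 and 32 ECA722 counts and no N2 count, at least 51.3-fold higher from the ECA722 allele in allele-specific reads. The neuropeptide gene flp-34 (2.47 ± 0.41) and the Patched receptor gene ptc-1 (0.18 ± 0.03) also had the ECA722 allele higher, and the calls of sri-65, flp-34 and ptc-1 were each lost without at least 1 hybrid library (edgeR, adjusted p between 0.0654 and 0.101). Of 8089 genes in no list, 703 (8.69%) were called.

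**Figure D2:**
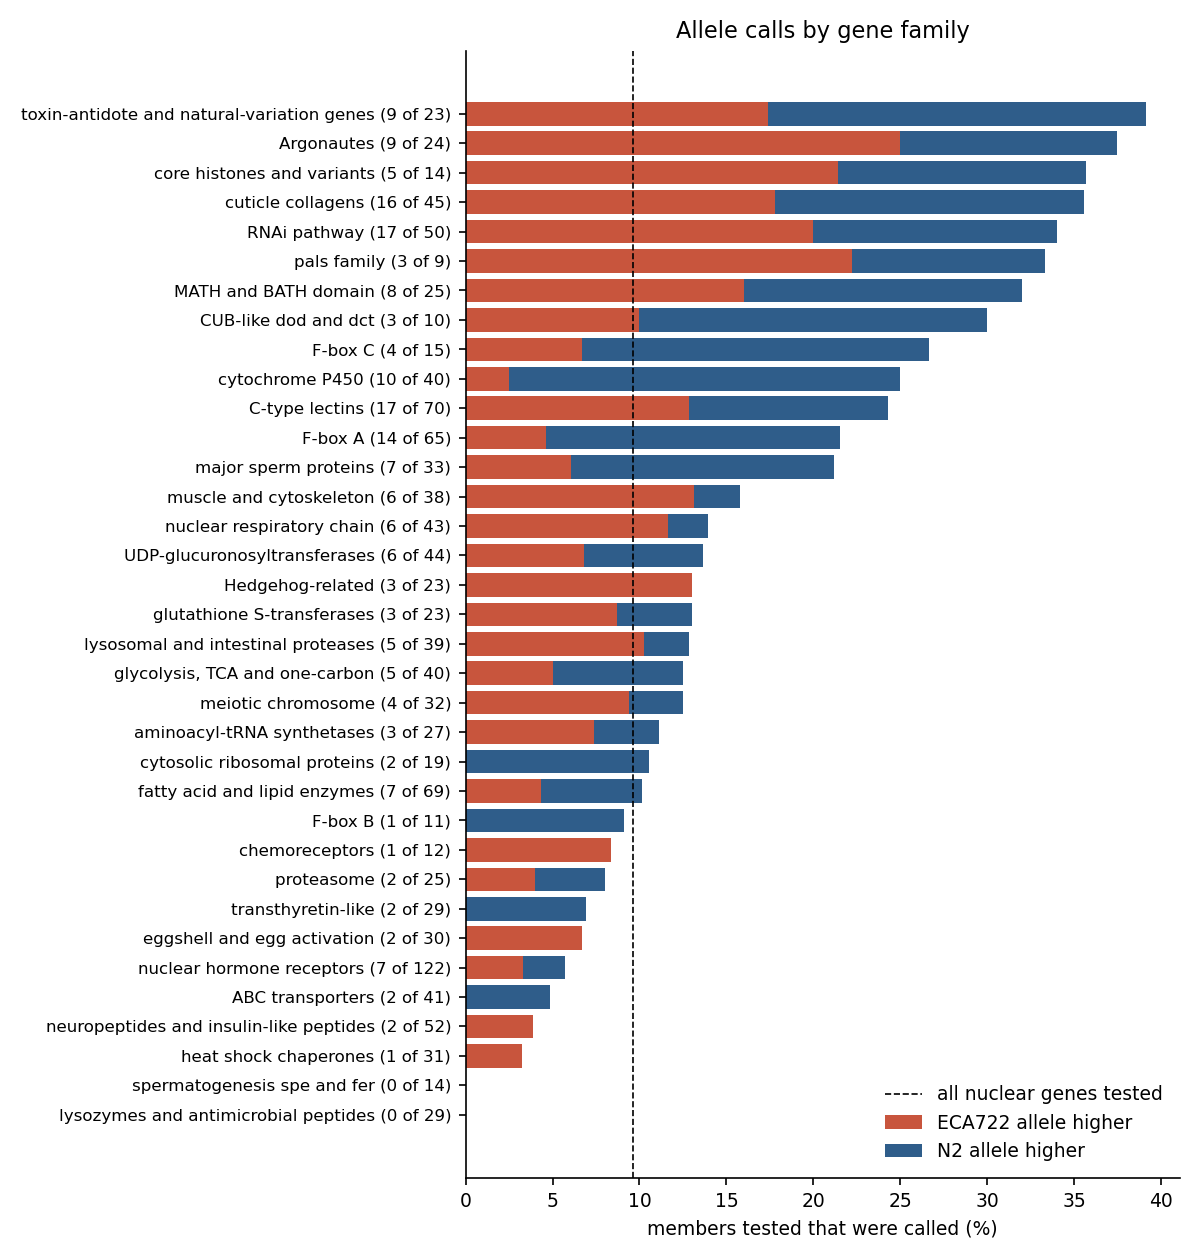
Percent of tested genes called in each gene list with at least 9 tested members, with the ECA722 allele higher (red) stacked before the N2 allele higher (blue); the dashed line marks the 9.64% called over all 9309 tested genes. The natural-variation loci (39.1%), Argonautes (37.5%), core histones (35.7%) and cuticle collagens (35.6%) have the longest bars, and the lysozyme and spe and fer bars are at 0. The 5 core histone calls numbered 2, 1 and 2 without hybrid replicate 1, 2 or 3. The natural-variation calls include fog-2, which was mutant in the N2 mothers.

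Of 23 tested loci on a list of toxin-antidote and natural-variation genes, which were collected for known differences between isolates, 9 were called, 4 with the ECA722 and 5 with the N2 allele higher. The counts were 3, 3 and 7 when hybrid replicate 1, 2 or 3 was left out. Among the 9 is fog-2, in which the N2 mothers carried a mutation, so its call need not reflect a difference between isolates. The calls of eri-6, eri-7 and ppw-1 are also counted in the small RNA lists. The antidote gene pha-1 had 1532, 1460 and 721 ECA722 counts against 355, 415 and 211 N2 counts (1.90 ± 0.13; edgeR, adjusted p = 0.0011), with 98% of its reads allele-specific. The parents stood at 34.7 ± 0.92 CPM in ECA722 and 10.8 ± 0.56 in the libraries labelled N2 (SD, n = 3 each). The glutamate-gated chloride channel gene glc-1, a target of avermectins, was lower from the ECA722 allele, with 104, 152 and 38 counts against 374, 507 and 242 (-2.06 ± 0.26; edgeR, adjusted p = 0.00827), a call lost without hybrid replicate 2 (adjusted p = 0.055). The chromatin remodeller gene nurf-1 differed by -0.26 ± 0.04, and top-2 by -0.04 ± 0.03, which was not called (edgeR, adjusted p = 0.534). The nurf-1 call was lost without hybrid replicate 1 (adjusted p = 0.0749) or 2 (0.11).

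The toxin gene sup-35, the partner of pha-1, could not be tested, because no read told its alleles apart. Its level was 0 CPM in all 3 ECA722 parents, against 37.0, 42.8 and 38.3 in the libraries labelled N2. The hybrids held 16.9, 17.9 and 18.4 CPM, below each of the libraries labelled N2. The authors' method gave 669, 723 and 346 of these counts to each allele, an equal division for a gene with no RNA in the ECA722 parents. An equal division was also given for the antidote zeel-1 and its sperm toxin partner peel-1, both at 0 in ECA722 parents. For zeel-1 the libraries labelled N2 held 3.64, 1.62 and 1.77 CPM and the hybrids 0.0887, 0.261 and 0.0797. For peel-1 the libraries labelled N2 held 0.163, 0.334 and 0.215 CPM and the hybrids 0.114, 0.323 and 0.398. The peel-1 hybrids were thus not below each library labelled N2. Both genes rest on at most 13 counts per allele and hybrid library.

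Such genes were common among those left out. Of 13708 genes with a mean hybrid count of at least 20, 2584 had no allele-specific read, and 2389 of these were divided equally between the alleles to within 1%. There were 133 genes under 0.1 CPM in the ECA722 parents and at 1 or more in the libraries labelled N2. Of these, 29 were tested and 25 called, while 93 had no allele-specific read and 89 were divided equally. Their median level in the hybrids was 0.468 of that in the libraries labelled N2. In the reverse direction there were 56 genes, of which 30 were tested, 24 called and 12 divided equally. An equal division in the deposited counts is thus no measurement of equal alleles. In all, 104 of the 133 genes and 26 of the 56 genes could not be tested. They are absent from the counts above, and whether their alleles differ in the hybrids was not measured.

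Between the parents, ECA722 and the libraries labelled N2 differed in 4242 of the 9309 tested genes (45.6%; edgeR, Benjamini-Hochberg). Of the 897 genes with an allele difference, 695 differed between the parents, 646 in the same direction and 49 in the opposite one. Of the 454 with an allele difference of 2-fold or more, 416 were called in the parents and 398 in the same direction. Pearson's r across the 897 genes was 0.861, a description over genes that are not independent replicates. The parental totals of the libraries labelled N2 come from a quantification against another allele pair, and the part of that in these differences was not tested. Muscle RNA also varied: the myosin gene unc-54 had 793 to 1227 CPM in ECA722 parents, against 1105, 413 and 331 in replicates 1, 2 and 3 labelled N2.

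A single model over the 9 libraries tested whether the parental and allele differences were unequal, which held for 1389 genes (14.9%). Of the 897 calls, 451 (50.3%) were called in the alleles and the parents and not in this test, for example clec-3, nep-4, sago-1 and rnh-1.2. A further 244 were called in all 3 tests, 193 of them with the trans term opposing the allele difference, as in col-19 and fat-7, and 51 with it adding to the allele difference, as in folt-2. In 144 genes the alleles and the trans term were called and the parents were not, as in rpn-9. The trans term contains the allele difference with its sign turned, so an error in the allele difference adds to the opposing and compensating classes. Without hybrid replicate 1, 2 or 3, 218, 126 and 281 genes were in the class called in alleles and parents only. The trans count was 845 without ECA722 parental replicate 1, 814 without ECA722 parental replicate 3, 896 without replicate 2 labelled N2 and 864 without replicate 3 labelled N2.

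**Figure D3:**
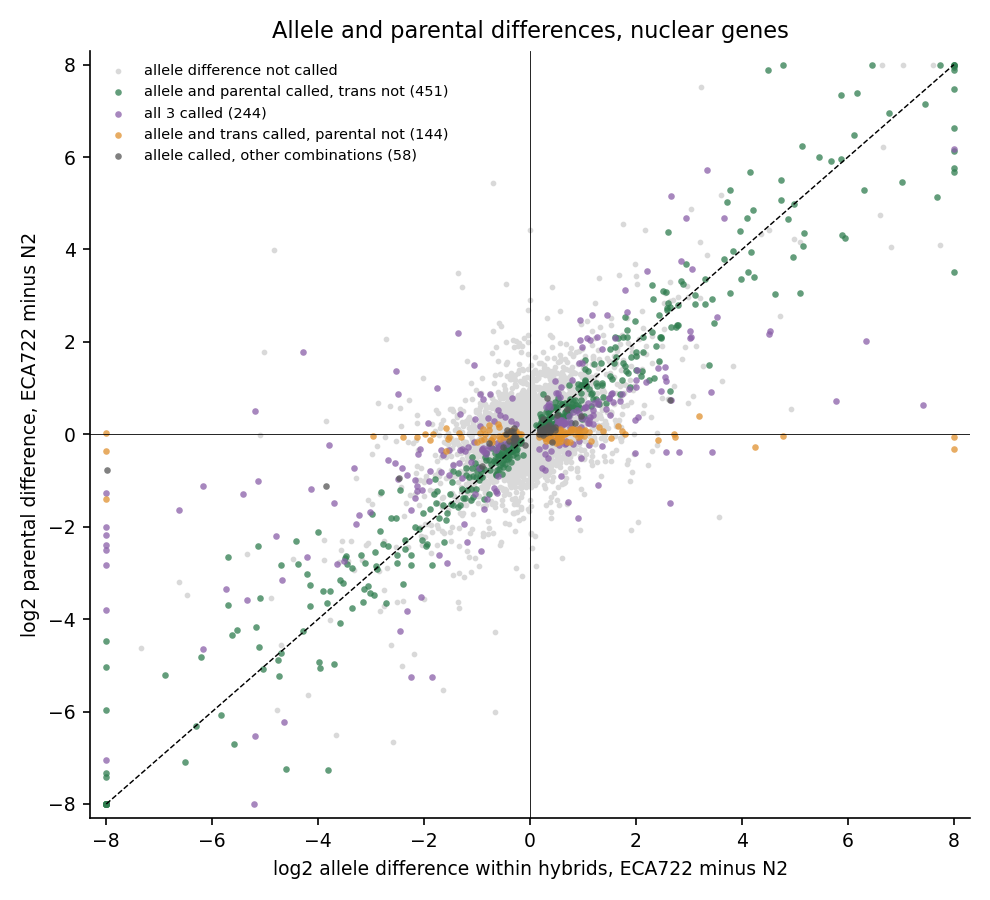
Log2 difference between the ECA722 and N2 alleles in the hybrids (x axis) against the log2 difference between ECA722 parents and the libraries labelled N2 (y axis), both limited to 8 in either direction, for the 897 called genes coloured by class; the dashed line marks equality. The classes are defined by the calls. The 451 genes called in alleles and parents only have no trans call by definition, and their median absolute trans term is 0.25. The 144 genes called in alleles and trans have no parental call by definition, and their median absolute parental difference is 0.065.

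The agreement with the parents moved with the share of reads that told the alleles apart. Expression level and the size of the difference were not held fixed in this comparison, and their part was not tested. Of 111 called genes with under 5% of reads allele-specific, the parents differed in the same direction in 36.9% and the trans term was called in 78.4%. In the classes from 5% to 10%, 10% to 20% and 20% to 50%, the parents matched in direction in 59.6%, 62.3% and 83.9%. Of 195 called genes with 50% or more, the parents differed in the same direction in 89.2%, and the trans term was called in 29.2%. In allele-specific reads alone, 10 of the 897 had the opposite direction, among them col-179, vit-4, dct-16 and msp-77, and 8 of these 10 had under 5% of their reads allele-specific.

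**Figure D4:**
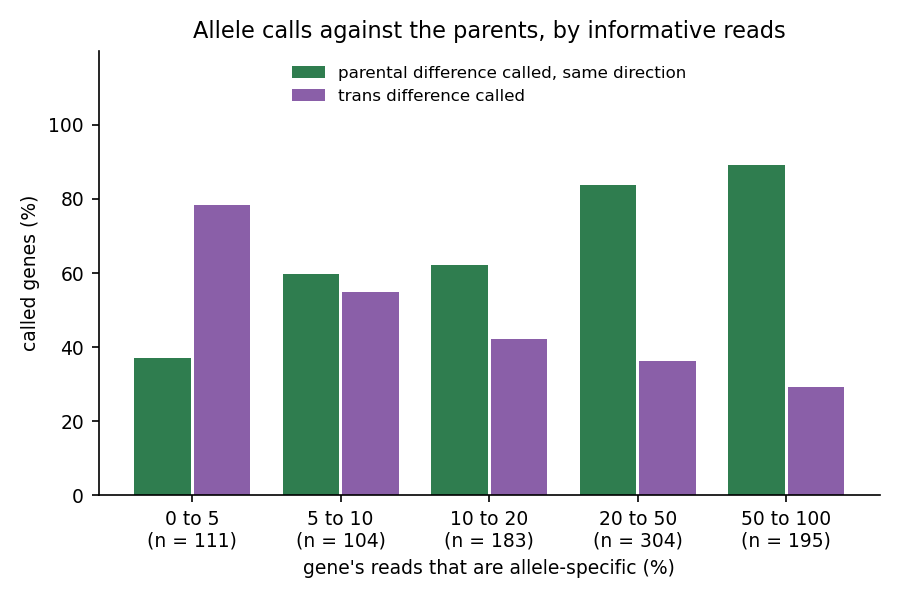
Percent of called genes whose parents differed in the same direction, and percent whose trans term was called, in 5 classes of the share of reads that were allele-specific. Agreement in direction is 36.9% in the lowest class and 89.2% in the highest, and trans calls are 78.4% in the lowest class and 29.2% in the highest.

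Several abundant genes fall in the lowest of these classes. The exportin gene xpo-2 had 27751, 27946 and 13011 ECA722 counts against 1154, 913 and 467 N2 counts, but 0.399% of its reads were allele-specific and its parents were not called (-0.04; edgeR, adjusted p = 0.507). The gene rbm-3.1 differed by -2.97 from all counts and by 0.66 from allele-specific reads, which made up 0.0392% of the total. The sodium pump subunit gene nkb-1 differed by -1.35 ± 0.08 between the alleles, by -1.53 in allele-specific reads and by 0.02 between the parents, with 3.52% of its reads allele-specific. In gpd-4, a glyceraldehyde-3-phosphate dehydrogenase gene with close paralogs, 16.6% of the reads were allele-specific, and the alleles differed by -3.80 ± 0.05 from all counts and by -3.86 from allele-specific reads. Its parents differed by -0.22.

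Annotated pseudogenes were called in 82 of 278 (29.5%), against 807 of 8986 protein-coding genes (8.98%). The ECA722 allele was higher in 62 and the N2 allele in 20, and with separate scaling of the alleles by TMM the split was 62 to 22. Leaving out hybrid replicate 1, 2 or 3 gave 53, 36 and 61 calls. The parents differed in the same direction in 57 of the 62 and in 17 of the 20. The pseudogene R03H10.12, a short gene model on chromosome II, had 527, 645 and 282 ECA722 counts against 6, 5 and 2 N2 counts (6.77 ± 0.27; edgeR, adjusted p = 0.000217), and its parents differed by 6.95. In F45D11.1 the alleles had 733, 992 and 390 ECA722 counts against 8, 8 and 9 N2 counts, and H10D18.6 had 186, 184 and 81 ECA722 counts against 1 N2 count in each library. Both are pseudogenes by the N2 annotation, and whether the ECA722 copies are intact was not tested.

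Expression from nearly 1 allele alone was found for both strains. The N2 allele held over 95% of the allele-specific reads in every hybrid library in 62 genes, of which 55 were called and none is an annotated pseudogene. Of these 62, 30 were under 0.1 CPM in the ECA722 parents, and in 9 the N2 share in ECA722 parents exceeded 5%. The ECA722 allele held over 95% in 55 genes, of which 41 were called, 15 are annotated pseudogenes, and 31 were under 0.1 CPM in the libraries labelled N2.

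Genes whose ECA722 and N2 transcript models differ in length were called more often. The share called was 22.1% (74 of 335) where the lengths differ by 10 bases or more, 31 with the ECA722 and 43 with the N2 allele higher, against 7.71% (553 of 7173) where they are equal. By chromosome, the share called was 13.1% on V, 10.0% on II, 9.27% on IV, 8.95% on I, 8.10% on III and 7.71% on X. The outer parts of the chromosomes, 25% of the length at each end, held 475 calls among 4002 genes (11.9%), against 422 among 5307 (7.95%) in the middle parts. The median share of allele-specific reads was 22.5% in the outer and 14.9% in the middle parts, so the density of sequence differences moved with the share called. Its part in the result was not tested.

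In the hybrids of the other 6 wild strains, each fitted alone in the same way, many of the ECA722 differences recurred. Of the 897 calls, 564 had the same call in at least 1 other cross, 333 in none, and 31 of these were not testable in any other. The overlap with XZ1516 hybrids was 347 genes, 44.5% of the ECA722 and 25.1% of the XZ1516 calls testable in both crosses. With ECA701 it was 311 genes (41.6% and 31.6%), and with QX1211 it was 304 (40.2% and 34.9%). With EG4348 it was 99 genes (26.2% and 34.9%), with CB4856 132 (25.0% and 35.7%) and with DL238 123 (22.9% and 33.3%). No hybrid library is shared between the crosses, but the N2 haplotype and its annotation are shared by all. Over all genes testable in both crosses, the share called was 17.1% in XZ1516, 13.2% in ECA701, 11.1% in QX1211, 8.02% in EG4348, 7.29% in CB4856 and 7.22% in DL238 hybrids. Differences between crosses were not tested.

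Some of the genes above were called in ECA722 hybrids and in no other cross that could test them. The col-19 difference of -4.68 stood against -0.12 to 0.13 in the 6 other crosses. For sago-1 the other crosses gave -0.11 to 0.27 and for his-74 -0.15 to 0.28. Other genes were biased widely: C49G7.13 was called in all 5 other crosses that could test it, at 7.88 to 12.79, and folt-2 in all 5, at -0.22 to -4.94. The rpn-9 difference was called in QX1211 (1.04), XZ1516 (0.95) and ECA701 (1.11) hybrids, and not in EG4348 (0.11), CB4856 (0.01) or DL238 (0.10) hybrids.

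Of 235 ECA722 calls testable in all 6 other crosses, 13 had the same call in every cross, 10 with the wild and 3 with the N2 allele higher. Besides fog-2 and xpo-2, these included mcm-4, which encodes a subunit of the replicative helicase (0.48 to 0.83 in the other crosses), and hphd-1, an enzyme of propionate breakdown (0.22 to 0.30). The pseudogene T16H12.1 differed by 2.34 to 3.78 and the genes C23H5.8 and F13E6.1 by -0.86 to -1.82 and -0.84 to -1.60. These 5 genes were chosen after their values were seen, and hphd-1 lost its ECA722 call without hybrid replicate 2 (edgeR, adjusted p = 0.0551).

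**Figure D5:**
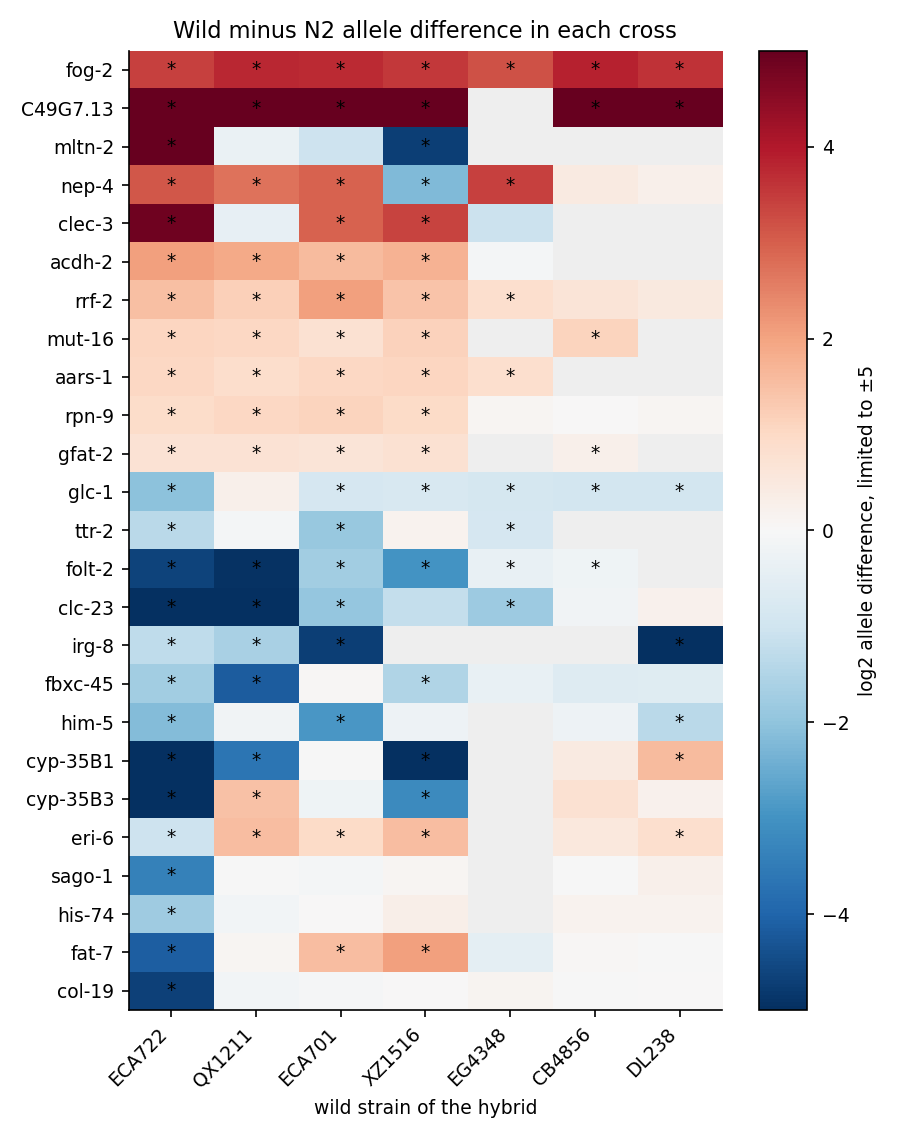
Log2 difference between the wild and N2 alleles, limited to 5 in either direction, for 25 genes (rows) in the hybrids of ECA722 and of 6 other wild strains (columns); a star marks an adjusted p below 0.05 and grey a gene that could not be tested in that cross. The col-19, sago-1 and his-74 rows carry a star in the ECA722 column alone, while fog-2 is higher from the wild allele in all 7 crosses.

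Mitochondrial genes gave a comparison in which the N2 source is known, since mitochondria pass through the mother. All 13 tested mitochondrial genes had the N2 allele higher and were called, which brings the calls to 910 of all 9322 genes (9.76%). Of the allele-specific mitochondrial reads, 5940 matched ECA722 and 328521 N2 in hybrid replicate 1, an ECA722 share of 1.78% with an exact 95% binomial interval of 1.73% to 1.82%, while replicates 2 and 3 gave 1.07% and 1.04%. In ECA722 parents 99.98% to 99.99% of these reads matched ECA722. In hybrids of the other 6 strains the wild share was 0.058% to 4.06%. These pooled shares were spread over the genes in unlike ways. In ECA722 hybrids the log2 differences of the 13 genes ran from -7.33 to -4.13, and in XZ1516 hybrids those tested ran from -6.76 to -5.18. In EG4348, CB4856, DL238 and ECA701 hybrids the gene MTCE.26 stood at -4.60, -2.89, -3.79 and -3.60. Every other gene tested in these crosses lay between -15.6 and -8.96. The crosses were not tested against each other.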

How the data were processed

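The authors deposited expected counts per gene and allele for each library, which the file names credit to salmon and emase-zero. They also deposited salmon's equivalence classes, that is the fragments compatible with each combination of transcripts. Per the submitters' processing notes, Trimmomatic 0.39, FastQC, kallisto, Salmon 1.4 and DESeq2 1.42.0 were used with build ce11, in roles that are not given. No source used here says whether counting used strand. The authors' transcript lengths per allele served for the length comparison. Expected counts per transcript from kallisto, also deposited by the authors, served as an alternative for the parents.

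Gene coordinates and biotypes are from Ensembl WBcel235. Allele-specific reads were summed from classes whose transcripts all belong to 1 allele of 1 gene. Expected counts were rounded and tested by the quasi-likelihood method of edgeR 4.0.16 (R 4.3.3), with the library as a term, the same library size for its 2 alleles and Benjamini-Hochberg adjustment at 0.05 over all 9322 genes. Pairing of the alleles comes from the library itself. Parents were compared on gene totals with TMM scaling, and the trans term, parental minus allele difference, in 1 model over 9 libraries. Parental levels are CPM after TMM scaling, while levels of untested genes and marker genes are counts scaled to the fragments of the library. Ratios with an allele at 0 used a floor of 3 counts over the 3 libraries. Intervals at 95% and floors cover counting error only, since PCR reads carry no molecular identifiers.

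Tested on simulated data, the allele test recovered 57 of 100 genes changed 2-fold and 83 of 100 changed 4-fold among 9322, with 11 false calls. The simulation drew the counts of each allele directly and left out the division of shared reads. Errors of that division are therefore not in these numbers. The members and gene lists were chosen with earlier results of these data known. The genes named include the 8 strongest calls in each direction with at least 30 allele-specific reads per hybrid library. For these 8 the lower allele also had to average at least 1 count per library. The N2 share of allele-specific reads in ECA722 parents could be at most 5%. Added were leading one-sided alleles, the 6 most abundant calls of at least 1.5-fold in each direction and up to 4 called members of each list. The tested natural-variation loci and the 4 largest opposing trans terms completed the choice. Of all these the text describes those with a known role or a value that a result turns on.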

Additional observations from a re-analysis of the deposited data

Results flagged for a closer look

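Some genes had the ECA722 allele on one side and another wild allele on the other side of N2, both called and both at least 2-fold. These differences between crosses were not tested. For fat-7 the ECA722 allele was at -4.13 on the log2 scale, while the XZ1516 allele was at 2.04 and the ECA701 allele at 1.56. For mltn-2 the ECA722 allele was at 5.67 and the XZ1516 allele at -4.71, and for nep-4 the values were 3.12 for ECA722 and -2.19 for XZ1516. For F45D11.1 they were 6.31 for ECA722 and -2.90 for ECA701. For fbxc-47 they were 1.56 for ECA722 and -1.55 for XZ1516.

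P450 genes also changed sides. The cyp-35B1 difference was -5.35 in ECA722 and 1.57 in DL238 hybrids, and the cyp-35B3 difference was -8.69 in ECA722 and 1.47 in QX1211 hybrids. The cyp-35A2 difference was -1.05 in ECA722, 1.33 in XZ1516 and 1.15 in ECA701 hybrids, and the cyp-33C8 difference was 1.76 in ECA722, -2.20 in XZ1516 and -2.05 in ECA701 hybrids. For eri-6 the values were -1.02 in ECA722, 1.54 in QX1211 and 1.56 in XZ1516 hybrids, and for Y16E11A.4 they were -6.52 in ECA722 and 2.67 in QX1211 hybrids.

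The remaining genes of this kind have close paralogs, few allele-specific reads or a high background. They are gpd-4 (-3.80 in ECA722, 1.32 in QX1211 hybrids), msp-152 (-3.97 in ECA722, 1.25 in QX1211 hybrids), col-93 (-6.18 in ECA722, 1.86 in ECA701 hybrids) and bath-24 (-10.02 in ECA722, 1.54 in ECA701 hybrids). The bath-35 difference, where ECA722 parents gave mostly N2 reads, was -6.63 in ECA722, 1.26 in EG4348, 1.26 in CB4856 and 1.29 in XZ1516 hybrids.

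Mitochondrial reads matching ECA722 made up 1.78%, 1.07% and 1.04% of the allele-specific mitochondrial reads in hybrid replicates 1, 2 and 3. They stood out because mitochondria come from the N2 mother, and their source was not tested.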

How the results depend on the processing

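The count of 897 allele differences (489 ECA722 higher, 408 N2 higher) was 198 (110 and 88) without the filter on allele-specific reads, and the cause was not tested. It was 1871 (1016 and 855) from allele-specific reads alone, and 1529 (836 and 693) with no replicate block, where both alleles of a library were not paired. Fits without 1 hybrid library gave 298 to 627 calls, 166 to 341 with ECA722 higher and 132 to 286 with N2 higher. With the alleles scaled separately by TMM or by DESeq2 size factors there were 891 and 888 calls, of which 50.7% had ECA722 higher in both, against 54.5% with 1 library size, and DESeq2's Wald test gave 1305 calls. Of 114 named genes called, 20, 45 and 16 lost the call without hybrid replicate 1, 2 or 3, at adjusted p up to 0.228.

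From allele-specific reads alone, the calls were 105 (43.9%) for immunity and ubiquitin-ligase adaptors, 64 (23.7%) for detoxification and 39 (30.5%) for core machinery. They were 39 (33.9%) for reproduction and 28 (62.2%) for the cuticle, against 20.1% of all tested nuclear genes. With these reads 942 genes were called in alleles and parents but not in trans. That class held 126 to 485 genes in fits without 1 library. Genes kept on the N2 side alone numbered 41 at a limit of 2%. Without the filter, 3165 genes were higher in the libraries labelled N2. Trans calls ranged from 814 to 1746 without 1 library. The main parental fit did not use the replicate numbers as pairs. The correlations of same-numbered deviations were 0.461, 0.523 and 0.0115, against -0.602 to 0.412 between unlike numbers. Whether same-numbered parental libraries belong together was not tested. With the replicate block the parents gave 4934 calls, the trans term 1089 and the class of alleles and parents only 505.

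Directions turned for few named genes. From allele-specific reads alone the allele difference was 0.66 for rbm-3.1, 1.77 for dct-16, -0.27 for vit-4 and -4.89 for col-179. With those reads the trans difference was -0.55 for col-93, -0.70 for rbm-3.1, -1.81 for dct-16, 0.27 for vit-4 and 5.43 for col-179. With kallisto totals the parental difference was 0.32 for col-94, -1.32 for vit-4 and -7.15 for his-1. Genes with no kallisto count, pseudogenes among them, had no such value. The his-69 trans difference ranged from -4.38 to 1.23 without 1 library.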
